A study of Danio rerio with 12 samples.

Results

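The genes described here are 59 named genes of mitosis and the G2/M transition, the passage from a cell with replicated DNA into division. They were chosen by their gene symbols, with no measured value in the rule. The list was drawn up with earlier results of these data known, so counts and shares over it are descriptions. Of the 59 symbols, 58 stood in the table of 31465 genes, on 59 rows, because ube2c stood on 2 rows. No row carried the symbol incenp, which is not analysed here. A minimum on counts left 58 of the 59 rows among the 21068 genes that were tested. Each tested row is counted as a gene below, so ube2c counts on both of its rows. The row left out was birc5b, a second survivin copy, with 1, 3 and 10 reads in the wild-type and 14, 4 and 12 in the mutant-labelled libraries at 48 hours post fertilization (hpf), and 1 to 7 reads in every library at 72 hpf.

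The study measured RNA by sequencing in zebrafish embryos, in 4 groups of 3 libraries. These were wild type at 48 hpf, mycn mutant at 48 hpf, wild type at 72 hpf and mycn mutant at 72 hpf, and the strain label is AB. Mycn encodes a Myc family transcription factor, and by its title the series concerns the developing intestine of fish that model Feingold syndrome. The sources used here do not give the mutant allele, the zygosity, the number of embryos per library or the clutch, and they name no other allele or agent. P-values therefore measure the spread between these libraries, which may be technical.

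Cells enter mitosis when cyclin B and the kinase Cdk1 become active together, and they leave it when the anaphase-promoting complex marks cyclin B and securin for destruction. In between, condensin packs the chromosomes, kinetochores tie them to spindle microtubules, and the spindle checkpoint holds the anaphase-promoting complex back until every chromosome is attached. Most of these genes are transcribed in the late part of the cell cycle, so their RNA is commonly used as a sign of dividing cells. In the zebrafish embryo divisions become fewer as tissues differentiate, while the brain, the retina and the gut keep dividing progenitors.

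Libraries held 14793715 to 19732340 counts, and 3 counts were worth 0.151 to 0.216 CPM (a gene's reads per library size as edgeR computes it, with TMM factors between libraries). RNA of mycn was higher in the mutant-labelled libraries at both ages. At 48 hpf its mean level was 74.0 ± 14.9 CPM in wild type, below the 222 ± 25.2 CPM of the mutant-labelled group (SD, n = 3, edgeR quasi-likelihood adjusted p = 5.45e-06). The means at 72 hpf were 77.3 ± 2.25 and 153 ± 9.87 CPM (SD, n = 3, edgeR adjusted p = 0.00144). The direction of every genotype difference below rests on the labels. One library stood apart for the mitosis genes. Replicate 3 of the mutant-labelled 48 hpf group was the highest of its 3 libraries in 53 of the 58 genes, against 35.8% of all tested genes. In wild type at 48 hpf, replicate 1 was the highest in 38 of the 58 genes, against 30.4% of all tested genes. Log2 fold changes at 48 hpf of the mitosis genes that are described by gene or by role are therefore also given without mutant-labelled replicate 3. For the other gene lists they are not.

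**Figure D1:**
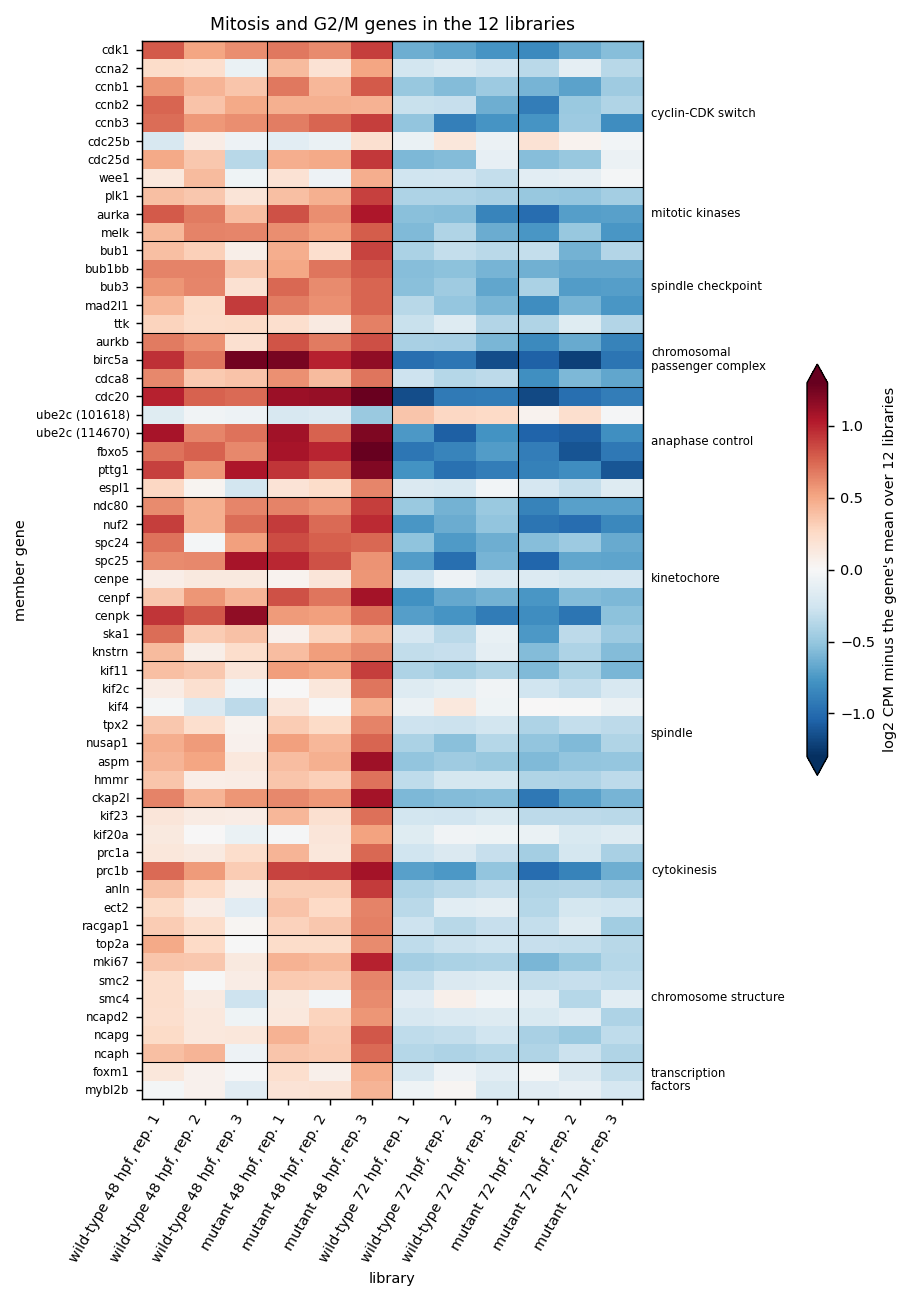
Level of each tested mitosis gene in each of the 12 libraries, as log2 CPM relative to the gene's mean over the libraries, with genes ordered by role and libraries by group. Both 48 hpf groups lie above both 72 hpf groups for most genes, and the third mutant-labelled library at 48 hpf is the highest of its group in 53 of 58 genes.

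Summed over the genes, the wild-type libraries held 2938, 2732 and 2548 CPM at 48 hpf and the mutant-labelled libraries 3038, 2904 and 3754 CPM. At 72 hpf the sums ran from 1661 to 1696 CPM in wild type and from 1564 to 1611 CPM in the mutant-labelled libraries. The sums overlapped between genotypes at 48 hpf and did not overlap at 72 hpf, where the mutant-labelled libraries were lower. In bulk RNA, fewer dividing cells and less mitotic RNA per cell cannot be told apart.

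At 48 hpf, 2 of the 58 genes rose in the mutant-labelled libraries and 0 fell, where 1.04% of all tested genes rose and 2% fell. The pair were fbxo5 and cenpf. Without adjustment the same test gave 22 genes higher and 1 lower at p under 0.05, beside 7.94% and 9.41% of all genes. The log2 fold change was above 0 for 54 of the 58 genes, against 49.5% of all genes, with a median of 0.22 against -0.00 over all genes. In 14 genes the mutant-labelled libraries were all above the wild-type libraries, and in 2 they were all below, where 7.69% and 9.08% of all genes did so.

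Fbxo5 encodes Emi1, an inhibitor of the anaphase-promoting complex that keeps cyclins from being destroyed before mitosis. It measured 21.8, 22.6 and 20.5 CPM in wild type at 48 hpf and 28.0, 26.5 and 33.0 CPM in the mutant-labelled libraries. The groups did not overlap, and replicate 3 was the highest. The log2 fold change was 0.43 (SE 0.11, 1.35-fold, edgeR adjusted p = 0.0496). Cenpf encodes a large protein of the outer kinetochore and the nuclear matrix. It measured 50.0, 58.6 and 53.4 CPM in wild type and 69.7, 63.4 and 83.4 CPM in the mutant-labelled libraries. Again the groups did not overlap. The log2 fold change was 0.42 (SE 0.11, 1.34-fold, edgeR adjusted p = 0.0478).

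Both calls lay close to the threshold and were lost when single libraries were left out. No mitosis gene was called at 48 hpf in 9 of the 12 fits without a single library, which were those without wild-type 48 hpf replicate 1, mutant-labelled 48 hpf replicates 1 and 3, and any of the 72 hpf libraries. Cenpf alone was called without wild-type 48 hpf replicate 3, both genes without wild-type replicate 2, and cenpf, kif23 and ncapg without mutant-labelled replicate 2. Without mutant-labelled replicate 3, the log2 fold changes were 0.35 for fbxo5 and 0.32 for cenpf. The same setting left 49 of 58 genes above 0, a median of 0.12, and, without adjustment, 11 genes higher and 1 lower at p under 0.05, beside 8.61% and 8.52% of all genes. No mitosis gene was called either when the fit used only the 6 libraries compared, while DESeq2 called 7 genes and limma-voom 2, where these tools called 5.05% and 2.83% of all genes in either direction.

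**Figure D2:**
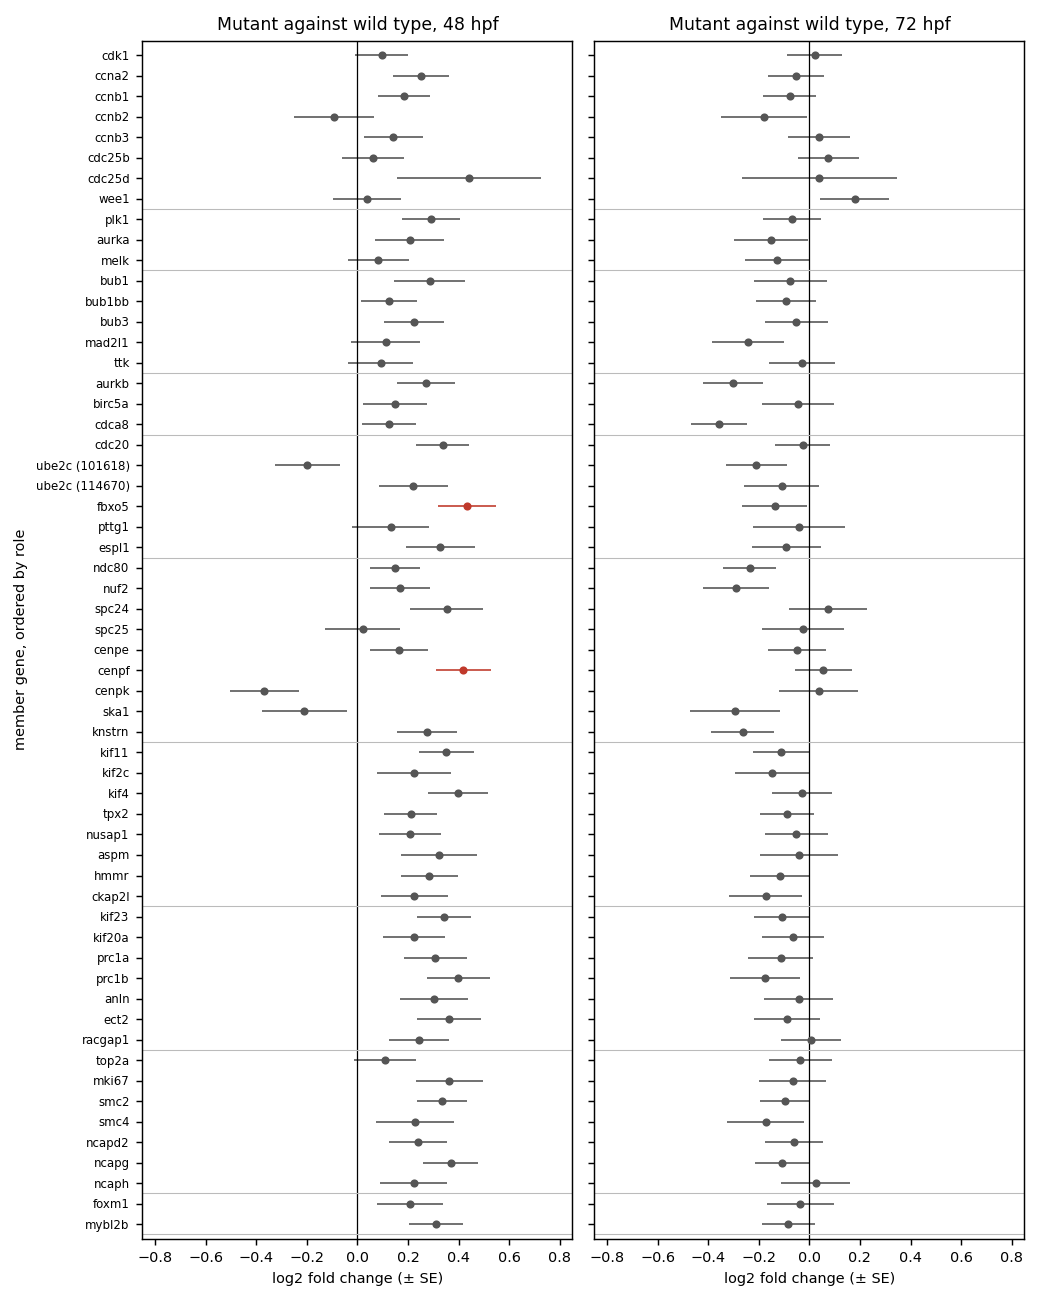
Log2 fold change of mutant-labelled against wild-type libraries for each tested mitosis gene at 48 hpf and at 72 hpf, with bars of 1 standard error from the edgeR fit and genes grouped by role. Red points passed an adjusted p of 0.05: fbxo5 and cenpf at 48 hpf and no gene at 72 hpf.

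The other genes at 48 hpf are described by role. None of them passed the adjusted test, so their values are given without a direction. The median log2 fold change of the 8 cyclin-CDK genes was 0.12, or 0.056 without mutant-labelled replicate 3. Cdk1, the kinase that starts mitosis, measured 111, 91.1 and 96.6 CPM in wild type and 102, 97.8 and 119 CPM in the mutant-labelled libraries. Its log2 fold change was 0.10 (SE 0.10), and 0.021 without replicate 3. Ccnb1, its cyclin B partner, measured 83.5, 76.3 and 72.4 CPM against 90.3, 75.9 and 97.6 CPM (0.18, SE 0.10, and 0.12 without replicate 3). Both genes overlapped between the groups. Ccna2, the cyclin of S phase and G2, had the smallest p of this role. It measured 70.4, 69.4 and 56.3 CPM against 79.7, 68.0 and 85.5 CPM, with overlapping groups (0.25, SE 0.11, edgeR adjusted p = 0.250, and 0.19 without replicate 3).

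Cdc25d, a phosphatase gene of the Cdc25 family with few reads, had the highest log2 fold change of the 58 genes. It measured 2.45, 2.21 and 1.35 CPM in wild type and 2.40, 2.45 and 3.29 CPM in the mutant-labelled libraries. The groups overlapped, and the log2 fold change was 0.44 (SE 0.28, edgeR adjusted p = 0.462), or 0.29 without replicate 3. The inhibitory kinase gene wee1 measured 24.7, 29.9 and 21.7 CPM against 25.6, 21.4 and 31.1 CPM, also with overlap. Its log2 fold change was 0.04 (SE 0.14), and -0.10 without replicate 3. Cdc25b, which encodes an activating phosphatase of Cdk1, had 0.06 (SE 0.12), and -0.043 without replicate 3.

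The 7 cytokinesis genes had a median of 0.31, or 0.16 without replicate 3, and the 7 chromosome genes one of 0.24, or 0.12 without it. Kif4, a chromosome-bound kinesin, measured 41.4, 36.9 and 33.2 CPM in wild type and 46.9, 41.9 and 57.8 CPM in the mutant-labelled libraries (log2 fold change 0.40, SE 0.12, edgeR adjusted p = 0.0861, and 0.27 without replicate 3). Prc1b, which bundles the microtubules of the midzone, measured 28.3, 24.9 and 21.2 CPM against 31.0, 31.2 and 35.7 CPM (0.40, SE 0.12, adjusted p = 0.0978, and 0.34 without replicate 3). In both genes the groups did not overlap. Smc2, a core subunit of condensin, measured 78.3, 66.9 and 71.4 CPM against 84.8, 84.4 and 104 CPM (0.34, SE 0.10, adjusted p = 0.0769, and 0.24 without replicate 3). Kif23, the kinesin of the centralspindlin complex, measured 51.3, 49.6 and 49.3 CPM against 61.9, 52.9 and 75.3 CPM (0.34, SE 0.11, adjusted p = 0.0974, and 0.21 without replicate 3). Neither smc2 nor kif23 overlapped between the groups. Smc4, the partner of smc2, measured 71.4, 66.1 and 50.6 CPM against 66.9, 59.8 and 93.4 CPM, with overlapping groups (0.23, SE 0.15, and 0.030 without replicate 3).

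The 8 spindle genes had a median log2 fold change of 0.25 at 48 hpf, or 0.11 without replicate 3. Kif11, the kinesin that pushes the spindle poles apart, measured 117, 115 and 99.9 CPM in wild type and 131, 126 and 167 CPM in the mutant-labelled libraries. The groups did not overlap (0.35, SE 0.11, edgeR adjusted p = 0.0955, and 0.23 without replicate 3). Aspm, a protein of the spindle poles, measured 65.8, 69.0 and 53.4 CPM against 64.0, 66.7 and 104 CPM, so that replicate 3 alone lay above wild type (0.32, SE 0.15, adjusted p = 0.283, and 0.074 without it). Anln, the anillin of the contractile ring, measured 62.4, 57.6 and 50.5 CPM against 60.1, 60.1 and 90.1 CPM (0.30, SE 0.13, adjusted p = 0.247, and 0.096 without replicate 3). Ckap2l, a spindle protein of mitotic cells, measured 25.0, 21.7 and 23.8 CPM against 24.7, 23.7 and 33.9 CPM, with overlap (0.22, SE 0.13, adjusted p = 0.420, and 0.056 without replicate 3).

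The mitotic kinases, the spindle checkpoint and the kinetochore had medians of 0.21, 0.12 and 0.17, or 0.10, 0.083 and 0.13 without replicate 3. Bub1, a kinase of the spindle checkpoint, measured 42.2, 39.9 and 33.9 CPM against 44.7, 37.5 and 58.9 CPM, with overlapping groups (0.28, SE 0.14, adjusted p = 0.315, and 0.10 without replicate 3). Plk1, the polo kinase that drives mitotic entry, measured 83.5, 81.2 and 71.7 CPM against 83.6, 87.8 and 118 CPM (0.29, SE 0.11, adjusted p = 0.187, and 0.14 without replicate 3). Its lowest mutant-labelled library lay just above the highest wild-type library. Mad2l1, which carries the checkpoint signal, measured 42.3, 37.3 and 59.0 CPM against 49.7, 47.4 and 52.8 CPM, with overlapping groups (0.11, SE 0.14, and 0.083 without replicate 3). Ndc80, of the kinetochore, measured 54.0, 48.8 and 54.9 CPM against 55.2, 53.5 and 66.1 CPM, also with overlap (0.15, SE 0.10, and 0.061 without replicate 3).

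The 3 tested genes of the chromosomal passenger complex had a median of 0.15 with and without replicate 3. Aurkb, the kinase of the complex, measured 70.8, 67.1 and 51.2 CPM in wild type and 77.9, 70.7 and 79.5 CPM in the mutant-labelled libraries (0.27, SE 0.11, edgeR adjusted p = 0.227, and 0.25 without replicate 3). Cdca8, which encodes borealin, measured 49.6, 40.6 and 41.5 CPM against 48.5, 42.8 and 52.3 CPM (0.12, SE 0.11, and 0.071 without replicate 3). Both genes overlapped between the groups.

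Mki67 encodes Ki-67, the coat protein of mitotic chromosomes. It measured 193, 191 and 164 CPM in wild type and 205, 201 and 300 CPM in the mutant-labelled libraries. The groups did not overlap, but 2 of the mutant-labelled libraries lay close to wild type and replicate 3 far above. The log2 fold change of 0.36 (SE 0.13, adjusted p = 0.152) became 0.17 without that library. Top2a, the topoisomerase that untangles sister chromatids, measured 187, 159 and 132 CPM against 156, 156 and 204 CPM, with overlapping groups. Its log2 fold change of 0.11 (SE 0.12) was -0.02 without replicate 3.

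Cdc20, the activator of the anaphase-promoting complex, measured 102, 86.0 and 84.5 CPM in wild type and 110, 111 and 123 CPM in the mutant-labelled libraries. All 3 mutant-labelled libraries were higher, and the log2 fold change of 0.34 (SE 0.10, adjusted p = 0.0932) was 0.30 without replicate 3. Mybl2b, which encodes the transcription factor B-Myb of the late cell cycle, measured 25.9, 27.5 and 23.8 CPM against 29.9, 30.0 and 35.8 CPM. The groups did not overlap, and the log2 fold change was 0.31 (SE 0.11, adjusted p = 0.124), or 0.23 without replicate 3. The other transcription factor among the genes, foxm1, had a log2 fold change of 0.21 (SE 0.13), or 0.098 without replicate 3.

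Cenpk, a subunit of the inner kinetochore, had the lowest log2 fold change at 48 hpf. It measured 16.0, 14.7 and 18.6 CPM in wild type and 12.3, 12.2 and 13.7 CPM in the mutant-labelled libraries. The mutant-labelled libraries were all lower (log2 fold change -0.37, SE 0.14, edgeR adjusted p = 0.163, and -0.41 without replicate 3). The other genes with a log2 fold change below 0 were ska1, ccnb2 and the second ube2c row, at -0.21, -0.09 and -0.20, or -0.30, -0.074 and -0.091 without replicate 3.

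Markers of other tissues were also compared between the genotype groups at 48 hpf. Of all tested genes, 1.04% rose and 2% fell, and 49.5% had a log2 fold change above 0 and 50.4% below. Of 20 markers of differentiated neurons, 4 rose and 20 had a log2 fold change above 0, with a median of 0.33. Their sums were 864.3 to 1009.7 CPM in wild type and 1361.6, 1207.7 and 1009.5 CPM in mutant-labelled replicates 1 to 3. Of 15 lens fibre markers, 2 rose and 15 were above 0, with a median of 0.59. Their sums were 1017 to 2073 CPM in wild type and 2286, 2727 and 1811 CPM in those replicates. The sums overlapped between genotypes in both lists. Replicate 3, the highest of its group for most mitosis genes, had the lowest sum of its group in both. Of 27 rows of neural progenitor markers, 0 were called and 22 were above 0, with a median of 0.12. Their sums of 1488 to 1611 and 1701 to 1737 CPM did not overlap. Of 13 erythroid markers, 1 fell and 6 were above 0, with a median of -0.01 and sums of 19111 to 25569 and 16507 to 17560 CPM. In these 4 lists no marker was at 0 in any library. Of 18 enterocyte markers, 3 fell and 13 were below 0, with a median of -0.34. Their sums, in which abundant markers weigh most, overlapped (9622 to 13783 and 8231 to 12095 CPM). The mean log2 CPM of the list, relative to each gene's mean over the 12 libraries, ran from -1.17 to -0.69 in wild type. It ran from -1.33 to -1.28 in the mutant-labelled libraries, without overlap. From 1 to 3 enterocyte markers were at 0 in each 48 hpf library. Skeletal muscle and epidermis markers gave 0 calls, with medians of -0.03 and -0.09. The 5 tested germ cell markers gave 0 calls too, with log2 fold changes from -0.88 to 0.87 and a median of 0.34. Their sums were low and overlapped, at 6.49 to 8.66 CPM in wild type and 7.15 to 12.3 CPM in the mutant-labelled libraries. The part of all these markers in the mitosis result was not tested.

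At 72 hpf, 0 of the 58 genes passed the adjusted test, where 0.555% of all tested genes did so. DESeq2 and limma-voom called 0 as well, where they called 1.23% and 0.926% of all genes. The smallest adjusted p was 0.255. Without adjustment, 5 genes were lower and 0 higher at p under 0.05, beside 4.08% and 3.67% of all genes. The log2 fold change was below 0 for 48 of the 58 genes, against 47% of all genes, with a median of -0.08. In 14 genes the mutant-labelled libraries were all below the wild-type libraries, where 9.14% of all genes did so, and in 1 gene they were all above, where 11% did so.

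The 5 genes at an unadjusted p under 0.05 were cdca8, aurkb, ndc80, nuf2 and knstrn. As a role, the 9 kinetochore genes had a median of -0.05 with 3 genes above 0, beside -0.08 over the 58 genes. The 3 tested genes of the chromosomal passenger complex had a median of -0.30 with 0 above 0. The chromosomal passenger complex corrects faulty attachments of chromosomes to the spindle. Cdca8 measured 26.7, 24.9 and 25.4 CPM in wild type and 18.5, 21.5 and 20.1 CPM in the mutant-labelled libraries (log2 fold change -0.36, SE 0.11, edgeR adjusted p = 0.255). Aurkb, of the same complex, measured 33.2, 32.8 and 29.3 CPM against 25.0, 28.1 and 24.3 CPM (-0.30, SE 0.12, adjusted p = 0.506). In both genes all mutant-labelled libraries were below all wild-type libraries. With only the 6 libraries of this age in the fit, both passed the test, cdca8 with an adjusted p of 0.02 and aurkb with 0.0482. At an unadjusted p under 0.05, that edgeR fit had 8 mitosis genes lower and 0 higher, beside 7.88% and 7.93% of all genes. With all 12 libraries those shares of all genes were 4.08% and 3.67%. The share of all genes that passed the adjusted test with only the 6 libraries was not computed.

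Ndc80 and nuf2 encode partners in the Ndc80 complex, the microtubule-binding arm of the kinetochore. Ndc80 measured 25.4, 23.1 and 25.4 CPM in wild type and 19.4, 21.7 and 21.7 CPM in the mutant-labelled libraries at 72 hpf. Nuf2 measured 10.9, 11.8 and 13.0 CPM against 9.55, 9.29 and 10.3 CPM. The groups did not overlap in either gene, with log2 fold changes of -0.24 (SE 0.11, adjusted p = 0.611) and -0.29 (SE 0.13, adjusted p = 0.612). The other 2 subunits of that complex differed by less than their errors: spc24 had a log2 fold change of 0.07 (SE 0.15) and spc25 of -0.03 (SE 0.16). Knstrn, a spindle and kinetochore adaptor, measured 11.3, 11.5 and 13.0 CPM against 9.55, 10.7 and 9.56 CPM, with no overlap (-0.26, SE 0.12, adjusted p = 0.640). Mad2l1 measured 24.4, 22.2 and 20.8 CPM against 17.9, 20.5 and 18.5 CPM, with groups that did not overlap (-0.24, SE 0.14, adjusted p = 0.798).

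Besides the genes above, hmmr, plk1, bub1bb, kif2c, tpx2, ckap2l, kif23 and the ube2c row ENSDARG00000101618 had all mutant-labelled libraries below all wild-type libraries at 72 hpf. Their log2 fold changes lay between -0.21 and -0.07. Ckap2l measured 10.6, 10.8 and 10.9 CPM in wild type and 8.41, 9.81 and 10.5 CPM in the mutant-labelled libraries (log2 fold change -0.17, SE 0.14, edgeR adjusted p = 0.919). Kif23 measured 38.9, 38.7 and 39.9 CPM against 36.3, 36.4 and 36.2 CPM (-0.11, SE 0.11, adjusted p = 0.943). In both genes the mutant-labelled libraries were all lower. Prc1b measured 10.4, 10.1 and 11.8 CPM against 8.52, 9.29 and 10.9 CPM, with overlapping groups (-0.18, SE 0.14, adjusted p = 0.901). Mki67 measured 110, 113 and 114 CPM against 99.7, 107 and 116 CPM, and top2a 106, 109 and 111 CPM against 108, 107 and 104 CPM. Both overlapped, with log2 fold changes of -0.07 (SE 0.13) and -0.04 (SE 0.12). Smc2 and smc4 had -0.10 (SE 0.10) and -0.17 (SE 0.15).

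Markers of other tissues at 72 hpf are given beside these values. Of all tested genes, 0.133% rose and 0.422% fell at this age, and 53% were above 0 and 47% below. Of 18 enterocyte markers, 9 fell and 15 were below 0, with a median of -0.81. Their sums overlapped, with 1298 to 1438 CPM in wild type and 1020 to 1346 CPM in the mutant-labelled libraries. The mean log2 CPM of the list, relative as above, did not overlap. It ran from 1.38 to 1.65 in wild type and from 0.59 to 0.78 in the mutant-labelled libraries. No enterocyte marker was at 0 at this age. Of 19 rows of skeletal muscle markers, 0 were called and 18 were above 0, with a median of 0.23 and sums of 36869 to 44494 and 45802 to 55292 CPM that did not overlap. Neuron, lens, neural progenitor and erythroid markers gave 0 calls, with medians of 0.07, 0.05, -0.03 and 0.20. Epidermis and germ cell markers gave 0 calls too, with medians of 0.03 and 0.06. The part of these markers in the values of the mitosis genes at 72 hpf was not tested.

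Wee1 was the single gene whose mutant-labelled libraries all lay above wild type at 72 hpf. It measured 18.77, 18.98 and 18.19 CPM in wild type and 20.5, 20.8 and 22.1 CPM in the mutant-labelled libraries (log2 fold change 0.18, SE 0.14, adjusted p = 0.893). The central genes of entry and exit were close between the groups. Cdk1 measured 41.1, 39.6 and 37.5 CPM against 35.9, 40.7 and 43.3 CPM (0.02, SE 0.11). Cdc20 measured 22.9, 26.8 and 27.0 CPM against 22.5, 25.6 and 27.1 CPM (-0.03, SE 0.11). Fbxo5 and cenpf, the genes called at 48 hpf, had -0.14 (SE 0.13) and 0.05 (SE 0.11).

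The difference between the genotype effects at the 2 ages was tested directly in the same model. Of the 58 genes, 0 passed, where 0.47% of all tested genes did so, and the smallest adjusted p was 0.189. At an unadjusted p under 0.05, 21 genes had a lower effect at 72 hpf and 0 a higher one, beside 4.59% and 5.79% of all genes. The difference was below 0 in 55 of 58 genes, against 48.7% of all genes, with a median of -0.35 on the log2 scale. Without mutant-labelled 48 hpf replicate 3 the median was -0.21, with 54 genes below 0 and 13 genes with a lower effect and 0 with a higher one at an unadjusted p under 0.05, beside 5.79% and 5.59% of all genes. Aurkb had a difference of -0.57 (SE 0.17, edgeR adjusted p = 0.189), fbxo5 of -0.57 (SE 0.17, adjusted p = 0.210) and prc1b of -0.57 (SE 0.19, adjusted p = 0.252). Cdca8 had -0.48 (SE 0.15, adjusted p = 0.242).

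From 48 to 72 hpf most of the mitosis genes fell in both genotypes. In wild type 47 of the 58 genes fell and 1 rose, where 35.4% of all tested genes fell and 35.4% rose. In the mutant-labelled libraries 54 fell and 1 rose, where 34.4% fell and 35.7% rose. Of these, 46 fell in both genotypes. The median log2 fold change was -0.70 in wild type and -1.03 in the mutant-labelled libraries, and the log2 fold change was -1 or lower in 20 and in 31 genes. Without mutant-labelled 48 hpf replicate 3 the median in the mutant-labelled libraries was -0.94. The gap between genotypes in the change with age equals the difference tested above, which no gene passed. Changes of single genes with age include replicate 3 unless stated. Across the 58 genes the changes in both genotypes had a Pearson r of 0.945, a description over genes that share libraries. Markers of other tissues also differed between the ages. In wild type, the neuron markers summed to 864 to 1010 CPM at 48 hpf and 4137 to 4525 CPM at 72 hpf. The erythroid markers summed to 19111 to 25569 CPM at 48 hpf and 1094 to 1239 CPM at 72 hpf. Their part in the change with age was not tested.

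The size of the fall depends on the scaling. With library totals in place of TMM factors, the median of all genes moved to 0.41 in wild type and 0.32 in the mutant-labelled libraries, and the mitosis genes stood 0.69 and 1.03 below that median. By that scaling 28 genes fell and 6 rose in wild type, and 45 fell and 2 rose in the mutant-labelled libraries. Of all tested genes, 22.1% fell and 49.7% rose in wild type, and 23.9% fell and 46% rose in the mutant-labelled libraries. The log2 fold change was then above 0 in 16 of the 58 genes in wild type, against 3 by TMM. In the mutant-labelled libraries it was above 0 in 4 genes, against 2 by TMM. Among the genes named by the rule given under the processing, ccna2, kif23, smc2, smc4 and mybl2b turned above 0 in wild type. Wee1 and kif4 did so in the mutant-labelled libraries. The values below are by TMM.

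**Figure D3:**
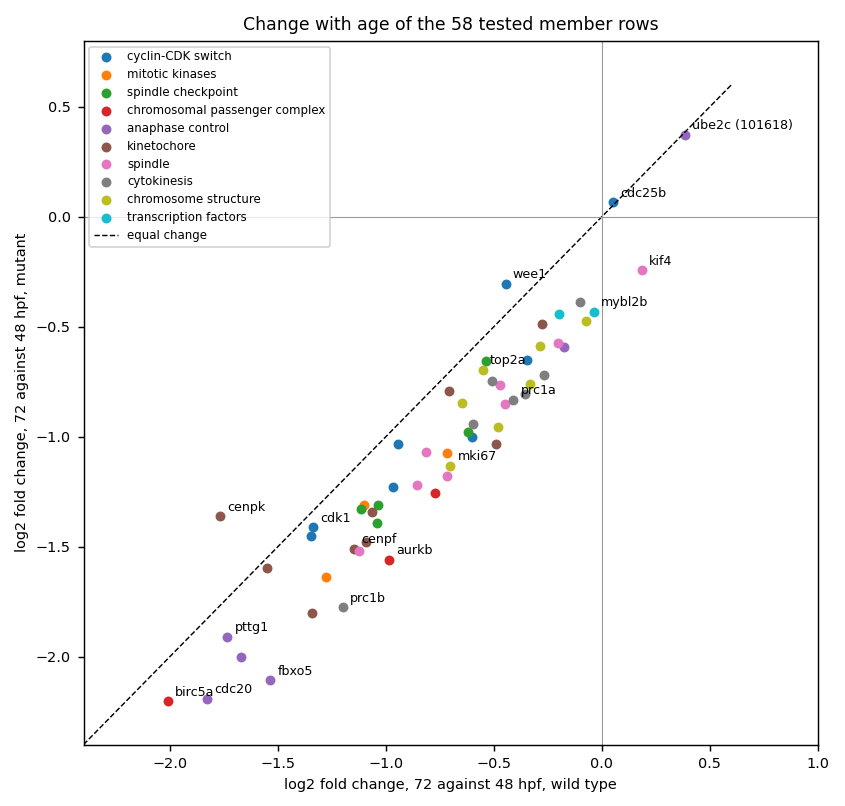
Log2 fold change from 48 to 72 hpf of each tested mitosis gene in wild type (x axis) and in the mutant-labelled libraries (y axis), with a line of equality and colours for roles. Most points lie below the line of equality and 46 genes fell in both genotypes. The median is -0.70 in wild type and -1.03 in the mutant-labelled libraries, or -0.94 without mutant-labelled 48 hpf replicate 3.

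The 6 rows of anaphase control had the lowest median of the 10 roles, -1.60 in wild type and -1.96 in the mutant-labelled libraries. The lowest single value belonged to a gene of the chromosomal passenger complex. Birc5a encodes survivin, the passenger subunit that docks at the centromere. It measured 44.7, 37.2 and 55.0 CPM in wild type at 48 hpf and 11.71, 11.98 and 10.33 CPM at 72 hpf (log2 fold change -2.01, SE 0.13, edgeR adjusted p = 1.83e-09). In the mutant-labelled libraries it measured 54.2, 46.2 and 51.3 CPM and then 11.1, 9.96 and 11.9 CPM (-2.20, SE 0.14, adjusted p = 7.27e-10). No 72 hpf library reached any 48 hpf library. Cdc20 fell by 1.83 (SE 0.11) in wild type and by 2.19 (SE 0.11) in the mutant-labelled libraries on the log2 scale, from the levels at each age given above. Fbxo5 fell from the 48 hpf levels above to 6.96, 7.34 and 8.07 CPM in wild type (-1.54, SE 0.12) and to 7.17, 6.14 and 7.02 CPM in the mutant-labelled libraries (-2.11, SE 0.12). Pttg1, which encodes securin, fell by 1.73 and 1.91. Espl1 encodes separase, the protease that securin holds back. It had -0.18 (SE 0.14, adjusted p = 0.261) in wild type and fell by 0.59 (SE 0.14, adjusted p = 0.00102) in the mutant-labelled libraries.

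The table held ube2c, the ubiquitin-conjugating enzyme of the anaphase-promoting complex, on 2 rows that moved in opposite directions. The row ENSDARG00000114670 measured 75.8, 56.0 and 58.9 CPM in wild type at 48 hpf and 21.4, 17.2 and 21.0 CPM at 72 hpf (log2 fold change -1.67, SE 0.14, edgeR adjusted p = 2.96e-08). The row ENSDARG00000101618 measured 9.79, 10.5 and 10.4 CPM and then 13.98, 13.16 and 13.03 CPM (0.39, SE 0.12, adjusted p = 0.0105). It was the single row of the 58 that rose with age, in wild type and in the mutant-labelled libraries (0.37, SE 0.13, adjusted p = 0.0147), where it measured 9.43, 9.64 and 7.79 CPM and then 11.3, 12.6 and 10.8 CPM. A reference table of gene names pairs ENSDARG00000114670 with UBE2C and ENSDARG00000101618 with DNTTIP1. The symbol and that table thus differ for the row that rose.

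Kinetochore genes had a median of -1.09 in wild type and -1.36 in the mutant-labelled libraries, but their range was wide. Cenpk fell to 5.10, 4.93 and 4.47 CPM in wild type at 72 hpf (log2 fold change -1.77, SE 0.15, adjusted p = 1.8e-08) and to 4.80, 4.34 and 5.78 CPM in the mutant-labelled libraries (-1.36, SE 0.15, adjusted p = 4.81e-07). Cenpf measured 22.8, 24.8 and 25.7 CPM in wild type and 23.3, 26.6 and 26.1 CPM in the mutant-labelled libraries at 72 hpf. It fell by 1.15 and 1.51, and ndc80 by 1.09 and 1.48. Cenpe, the kinesin that carries chromosomes to the metaphase plate, fell by 0.28 (SE 0.12, adjusted p = 0.0419) and by 0.49 (SE 0.11, adjusted p = 0.00129). Among checkpoint genes mad2l1 fell by 1.04 and 1.39, while the kinase genes bub1 and ttk fell by 0.62 and 0.53 in wild type. Bub1 measured 24.2, 25.9 and 25.2 CPM in wild type and 26.0, 21.0 and 24.6 CPM in the mutant-labelled libraries at 72 hpf.

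Among the mitotic kinases aurka, the kinase of the spindle poles, measured 38.8, 35.7 and 29.5 CPM in wild type at 48 hpf and 15.3, 15.2 and 12.3 CPM at 72 hpf (-1.28, SE 0.14, adjusted p = 6.1e-07). In the mutant-labelled libraries it went from 39.7, 33.9 and 46.4 CPM to 11.3, 13.6 and 13.7 CPM (-1.64, SE 0.14, adjusted p = 3.87e-08). The ages did not overlap in either genotype. Plk1 fell from the 48 hpf levels above to 48.2, 48.1 and 47.4 CPM in wild type (-0.72, SE 0.11). In the mutant-labelled libraries it fell to 45.2, 45.0 and 47.0 CPM (-1.08, SE 0.11). Aurkb fell by 0.99 (SE 0.12) in wild type and by 1.56 (SE 0.12) in the mutant-labelled libraries.

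The 8 cyclin-CDK genes ranged from -1.35 to 0.05 in wild type and from -1.45 to 0.07 in the mutant-labelled libraries. Cdk1 fell by 1.34 in wild type and by 1.41 in the mutant-labelled libraries, and ccnb3, a B-type cyclin, by 1.35 and 1.45. Ccnb1 fell from the 48 hpf levels above to 40.0, 38.2 and 40.5 CPM in wild type (-0.97, SE 0.10, adjusted p = 4.65e-07) and to 36.9, 34.7 and 41.0 CPM in the mutant-labelled libraries (-1.23, SE 0.10, adjusted p = 3.04e-08). Ccna2 fell to 50.7, 52.9 and 50.4 CPM in wild type (-0.35, SE 0.11, adjusted p = 0.0106) and to 46.8, 55.0 and 46.7 CPM in the mutant-labelled libraries (-0.65, SE 0.11, adjusted p = 7.27e-05). The ages did not overlap in either gene. The ratio of ccnb1 to ccna2 within a library was 1.19 ± 0.0941 at 48 hpf and 0.772 ± 0.0442 at 72 hpf in wild type (SD, n = 3). In the mutant-labelled libraries it was 1.13 ± 0.0132 and 0.766 ± 0.125 (SD, n = 3). These ratios were chosen after the values were seen and are given without a test.

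Cdc25b and kif4 did not pass the test with age in either genotype. Cdc25b measured 20.1, 24.9 and 22.3 CPM in wild type at 48 hpf and 22.0, 25.8 and 22.0 CPM at 72 hpf (log2 fold change 0.05, SE 0.12, adjusted p = 0.716). In the mutant-labelled libraries it measured 21.2, 21.9 and 26.9 CPM and then 26.6, 24.1 and 22.7 CPM (0.07, SE 0.12, adjusted p = 0.640). Its ages overlapped in both genotypes. Kif4 measured 39.9, 46.4 and 40.4 CPM in wild type and 42.3, 41.8 and 39.9 CPM in the mutant-labelled libraries at 72 hpf. It had 0.18 (SE 0.12, adjusted p = 0.178) in wild type and -0.24 (SE 0.12, adjusted p = 0.0797) in the mutant-labelled libraries. Wee1 fell in wild type (-0.45, SE 0.14, adjusted p = 0.00814) and had -0.31 (SE 0.14, adjusted p = 0.0551) in the mutant-labelled libraries.

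Cytokinesis and chromosome genes had smaller medians with age, -0.41 and -0.48 in wild type and -0.80 and -0.76 in the mutant-labelled libraries. Prc1b fell to 10.4, 10.1 and 11.8 CPM in wild type at 72 hpf (-1.20, SE 0.13, adjusted p = 5.17e-07), while its paralog prc1a measured 29.5, 28.8 and 31.1 CPM at 48 hpf and 22.3, 23.3 and 21.6 CPM at 72 hpf (-0.41, SE 0.13, adjusted p = 0.00889). The ratio of prc1b to prc1a went from 0.835 ± 0.141 to 0.482 ± 0.0589 in wild type and from 0.903 ± 0.135 to 0.464 ± 0.0727 in the mutant-labelled libraries (SD, n = 3). These paralogs may share reads, and the sources used here do not say how such reads were counted. Kif23 fell by 0.35 and 0.80, smc2 by 0.33 and 0.76, and top2a by 0.55 and 0.70. Smc2 stood at 53.9, 58.6 and 59.6 CPM in wild type and 53.6, 54.3 and 53.2 CPM in the mutant-labelled libraries at 72 hpf. Smc4 measured 55.2, 63.9 and 59.6 CPM in wild type at 72 hpf, within its range at 48 hpf, and was not called there (-0.07, SE 0.15, adjusted p = 0.675). It fell to 55.5, 47.2 and 55.8 CPM in the mutant-labelled libraries (-0.48, SE 0.15, adjusted p = 0.0113, and -0.29 without 48 hpf replicate 3).

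The 2 transcription factor genes had the smallest median of the 10 roles, -0.12 in wild type and -0.44 in the mutant-labelled libraries. Mybl2b measured 25.3, 26.8 and 23.0 CPM in wild type and 23.8, 24.4 and 22.7 CPM in the mutant-labelled libraries at 72 hpf. It had -0.04 (SE 0.11, adjusted p = 0.756) in wild type and fell by 0.43 (SE 0.10, adjusted p = 0.00164) in the mutant-labelled libraries. Foxm1 had -0.20 (SE 0.13, adjusted p = 0.186) and fell by 0.44 (SE 0.13, adjusted p = 0.00684). In all, 8 genes fell in the mutant-labelled libraries and were not called in wild type: espl1, kif2c, kif20a, ect2, smc4, cdc25d, foxm1 and mybl2b. For none of these 8 did the difference between the genotypes pass the test.

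**Figure D4:**
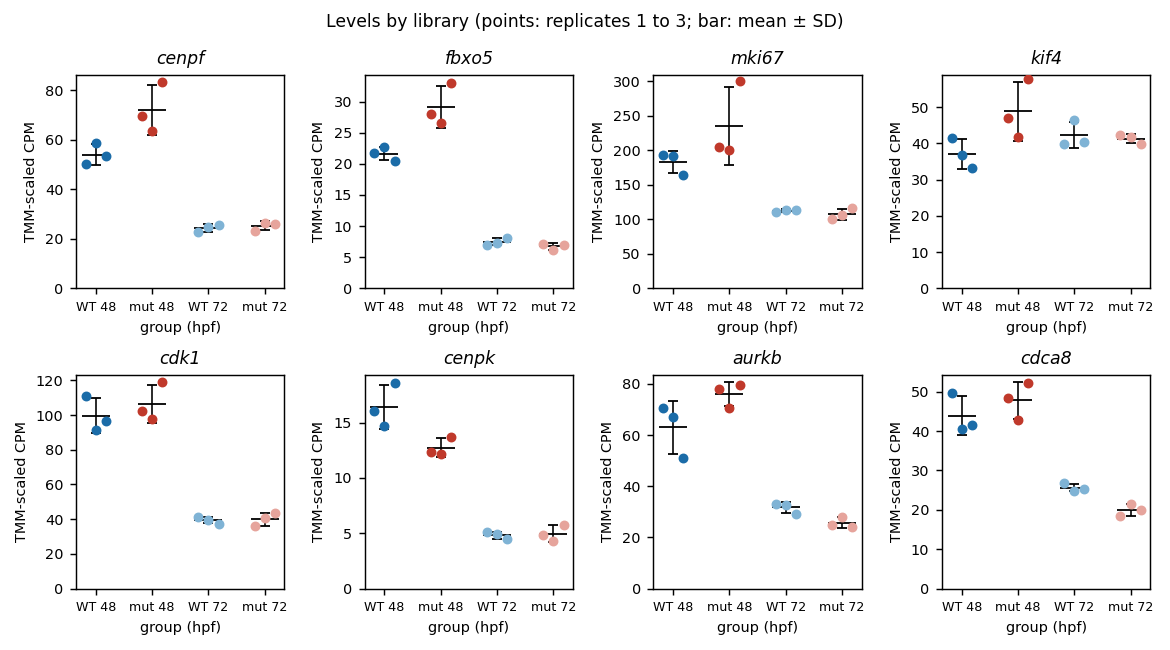
Level in CPM of selected mitosis genes in each library, with a point per library and a bar at the mean ± SD of each group of 3. Fbxo5 and cenpf are higher in the mutant-labelled libraries at 48 hpf, and cdca8 and aurkb lie lower in them at 72 hpf, where neither passed the adjusted test.

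Other cell cycle genes gave a frame for these values. Of 54 tested genes on a separate list of mitosis genes, 2 rose at 48 hpf, dsn1 of the outer kinetochore (log2 fold change 0.50, edgeR adjusted p = 0.0357) and lmnb2, a lamin of the nuclear envelope (0.50, adjusted p = 0.0137). Replicate 3 was the highest mutant-labelled 48 hpf library for this list too. Its mean log2 CPM, relative to each gene's mean over the 12 libraries, was 0.62, against 0.47 and 0.33 in replicates 1 and 2. At 72 hpf 0 of the 54 were called, and the medians of this list were 0.21 at 48 hpf and -0.08 at 72 hpf. With age 41 of them fell and 4 rose in wild type, and 45 fell and 1 rose in the mutant-labelled libraries. Of 47 rows of DNA replication and S phase genes, 0 were called at 48 hpf, with a median of 0.05. At 72 hpf 1 rose and 1 fell, and both carried the symbol rrm2, a subunit of ribonucleotide reductase. The rrm2 rows moved in opposite directions (1.41 and -1.31), while their sum was 66.0 CPM in wild type and 63.9 CPM in the mutant-labelled libraries. With age 33 of the 47 fell in wild type and 39 in the mutant-labelled libraries.

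Subunits of the anaphase-promoting complex, cohesin genes and genes of cell cycle exit gave 0 calls between genotypes at either age. Their medians at 48 hpf were 0.04, 0.12 and -0.11, with 8 of 16, 14 of 18 and 5 of 18 above 0, against 49.5% of all genes. At an unadjusted edgeR p under 0.05, 3, 3 and 0 were higher and 0, 0 and 5 lower, beside 7.94% and 9.41% of all genes. The medians at 72 hpf were -0.04, -0.06 and 0.07. Among 16 rows of anaphase-promoting complex subunits, 7 fell and 3 rose with age in wild type, and 10 fell and 1 rose in the mutant-labelled libraries. Among 18 cohesin genes, 5 fell and 8 rose in wild type, and 6 fell and 8 rose in the mutant-labelled libraries. Among 18 genes of cell cycle exit, 7 fell and 4 rose in wild type, and 4 fell and 4 rose in the mutant-labelled libraries. Beside all these lists of other cell cycle genes, 35.4% of all tested genes fell and 35.4% rose with age in wild type. In the mutant-labelled libraries 34.4% fell and 35.7% rose. Between genotypes, 1.04% of all tested genes rose and 2% fell at 48 hpf, and 0.133% rose and 0.422% fell at 72 hpf. The summed level of the mitosis genes relative to that of the S phase genes was 0.972 ± 0.0667 in wild type at 48 hpf (SD, n = 3). In the mutant-labelled libraries it was 1.09 ± 0.110 at 48 hpf (SD, n = 3). Replicates 1 to 3 had 0.974, 1.038 and 0.905 in wild type and 1.038, 1.015 and 1.216 in the mutant-labelled group. Only mutant-labelled replicate 3 lay above the wild-type range. At 72 hpf the ratios were 0.982 ± 0.0216 in wild type and 0.959 ± 0.0289 in the mutant-labelled libraries (SD, n = 3). These ratios are given without a test.

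**Figure D5:**
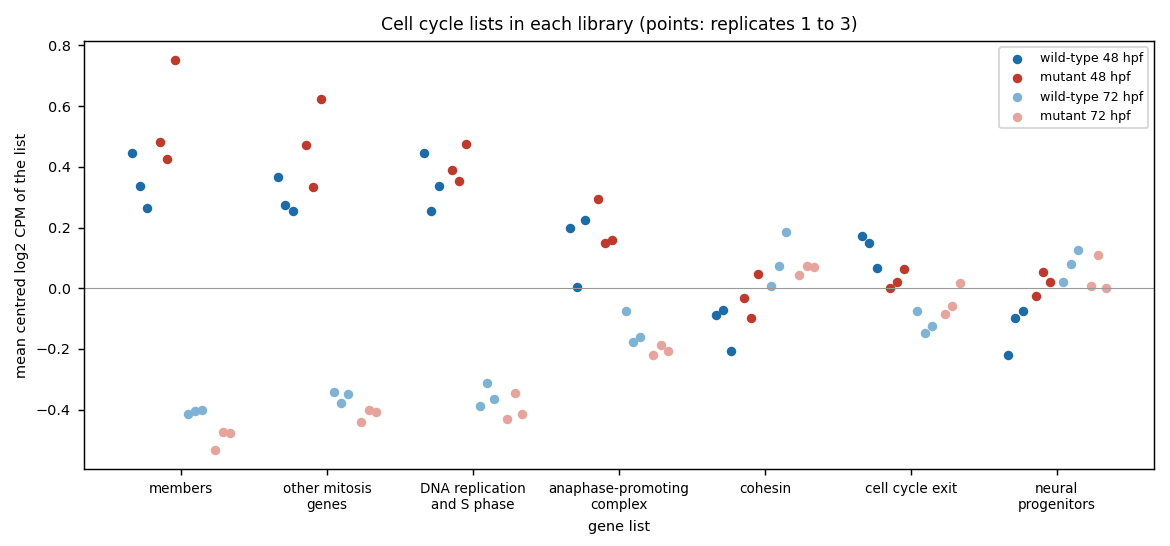
Summary level of the mitosis genes and of the other cell cycle lists in each library, as the mean log2 CPM of a list relative to its mean over the 12 libraries, with a point per library. The mitosis genes lie between 0.26 and 0.75 at 48 hpf and between -0.53 and -0.40 at 72 hpf.

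The median coefficient of variation over the 58 genes was 11.0% in wild type and 14.1% in the mutant-labelled libraries at 48 hpf, and 6.08% and 7.69% at 72 hpf.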

How the data were processed

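RNA of 12 zebrafish libraries was given as raw counts of reads per Ensembl gene, which the authors deposited without normalization. STAR, featureCounts, DESeq2 and the build GRCz11 are listed in the submitters' processing notes, without versions or roles. The sources used here do not give the annotation release or strandedness, so overlapping, antisense and near-identical genes are uncertain.

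Counts were filtered with filterByExpr (minimum count 10), scaled by TMM and fitted in R 4.3.3 with edgeR 4.0.16 (glmQLFit, glmQLFTest), with 1 coefficient per group over all 12 libraries. Benjamini-Hochberg adjustment ran over the 21068 genes tested, with calls under 0.05. Standard errors came from the fitted model, and the script was tested on simulated data. DESeq2 1.42.0 and limma 3.58.1 (voom) were alternatives, beside other scalings, no filter, fewer libraries and a replicate block. The members and lists were chosen with earlier results of these data known. Values per library are given by rule for called genes and for cdk1, ccnb1, mki67 and top2a. The rule also covers the gene of smallest p in each role at each age. It takes in the 3 lowest and the 3 highest log2 fold changes with age in wild type as well. Other genes named were chosen after their values were seen. Planned searches of promoters and protein sequences were not run, since no such sequences were used here.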

Additional observations from a re-analysis of the deposited data

How the results depend on the processing

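At 48 hpf the count of mitosis genes called, 2 as reported, was 10 with library totals, 1 with no filter on low counts, 7 with DESeq2, and 0 with only the 6 libraries compared. DESeq2 called 5.05% of all genes in either direction, against 3.04% in the reported fit. With library totals all genes shifted up, to a median of 0.086, and the mitosis genes stood 0.23 above it. At an unadjusted p under 0.05, 13.8% of all genes were then higher, against 7.94% in the reported fit. At 48 hpf, shares of all genes called at an adjusted p were not computed with library totals or no filter. Nor were they for fits on fewer libraries at either age, so those counts lack a background. Leaving out single libraries gave counts of 0 to 3 mitosis genes, with 0 in 9 of 12 fits. Same-numbered libraries of different groups correlated between -0.155 and 0.0233, as deviations from their group means. With 3 libraries per group, this cannot show whether equal numbers mark a shared clutch or batch. In 2 of 12 comparisons a library correlated best with its own number. With the replicate block the count at 48 hpf was 0. At 72 hpf the count was 2 with only the 6 libraries compared and 0 otherwise. The causes were not tested.

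Medians of the mitosis genes under library totals were -0.45 for the difference between ages, -0.27 for age in wild type and -0.71 for age in the mutant-labelled libraries, where all genes shifted too. Leaving out single libraries gave medians of 0.12 to 0.30 at 48 hpf, -0.09 to -0.07 at 72 hpf, -0.42 to -0.21 for the difference, -0.78 to -0.62 for age in wild type and -1.11 to -0.94 for age in the mutant-labelled libraries, with 46 to 49 and 52 to 57 genes called with age. In every setting run, 29 genes were called with age in wild type and 45 in the mutant-labelled libraries. In the reported fit, 70.8% and 70.2% of all tested genes were called with age in either direction. The share of all genes called in every setting was not computed.

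Under library totals 16 of the 58 genes had a log2 fold change with age above 0 in wild type, against 3 by TMM. Among the genes named by rule, those that turned in wild type were ccna2 (0.083), kif23 (0.077), smc2 (0.10), smc4 (0.36) and mybl2b (0.39). In the mutant-labelled libraries they were wee1 (0.019) and kif4 (0.081). Leaving out single libraries also turned uncalled values among the genes named by rule. At 48 hpf these were cdc25b (-0.043 to 0.14), mad2l1 (-0.020 to 0.34), top2a (-0.016 to 0.24) and wee1 (-0.095 to 0.17). Outside the rule, ttk (-0.077) and kif2c (-0.0041) turned below 0 at 48 hpf without mutant-labelled replicate 3. At 72 hpf the genes named by rule that turned were kif4 (-0.069 to 0.041), cdc20 (-0.10 to 0.046), cdk1 (-0.040 to 0.093), cenpk (-0.081 to 0.13), bub1 (-0.14 to 0.0090) and birc5a (-0.11 to 0.020). With age in wild type they were smc4 (-0.20 to 0.028), cdc25b (-0.024 to 0.13) and mybl2b (-0.087 to 0.020), and in the mutant-labelled libraries cdc25b (-0.0083 to 0.16).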
